A study of Mus musculus with 3 samples.

Results

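The 205 barcodes described here were taken as enteroendocrine cells of the mouse small intestine by a rule on their transcripts. In each, transcripts of Gcg, Pyy and Nts outweighed those of the other gut hormones. These 205 were chosen from 42055 barcodes of 3 single-cell RNA libraries. A barcode entered with 400 or more genes detected and at most 20% of its unique molecular identifiers (UMIs, 1 per captured RNA molecule) from mitochondrial genes, which 39235 barcodes met. It also needed 5 or more UMIs of the chromogranins Chga and Chgb together, which 1726 barcodes had. UMIs were then summed over Tph1 and Tac1, over Cck, Gip, Ghrl and Sst, and over Gcg, Pyy and Nts. A barcode was a member when the last sum was the highest of the 3 and at least 2, with ties left out. These 11 genes drew the members, and their levels are therefore given as a description with no test.

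The libraries came from EpCAM-sorted epithelial cells of C57BL/6 mice, 1 library for each genotype. WT was wild type and was sampled on day 21 after tamoxifen. LApc was Lgr5-EGFP-IRES-CreERT2;Apc fl/fl and was sampled on day 29, and LApcL was Lgr5-EGFP-IRES-CreERT2;Apc fl/fl;Lef1 fl/fl and was sampled on day 21. Tamoxifen was given as 2 doses of 2 mg to mice 7 to 8 weeks old. Cre is expressed in Lgr5-positive stem cells and only they and their descendants can lose the floxed genes, so a cell of either mutant library may still carry them intact. Genotype, mouse and library cannot be told apart, nor can the day for LApc. Where libraries are compared, no test was possible. Intervals are exact 95% intervals that cover counting error only.

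Enteroendocrine cells are rare hormone-secreting cells of the gut lining that sense the contents of the lumen. L cells process proglucagon, the product of Gcg, into GLP-1 and GLP-2 and also make peptide YY from Pyy, which slows gut transit and reduces appetite. N cells make neurotensin from Nts, a peptide released after fat intake. L and N cells are related, and single cells can carry more than 1 of these hormones.

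The stretches before the starts of the 3 hormone genes are shown since these genes define the cells. The sequences are from RefSeq on GRCm38.p6, all on the minus strand, and each reads 5′ to 3′ towards the gene start. Capitals mark CAGATG (an E-box of the kind bound by Neurod1 with its partners), TAAT (a core of homeodomain sites) and TGAGTCA (the AP-1 site bound by Fos and Jun), each on either strand. The Gcg stretch is chr2:62483654-62483903, the Pyy stretch is chr11:102107833-102108082 and the Nts stretch is chr10:102490487-102490668. The 68 bases nearest the RefSeq start of Nts lie within the gene as GENCODE draws it and are left off. For Pyy 2 starts were listed, and only the stretch before the first is shown and searched.
Gcg: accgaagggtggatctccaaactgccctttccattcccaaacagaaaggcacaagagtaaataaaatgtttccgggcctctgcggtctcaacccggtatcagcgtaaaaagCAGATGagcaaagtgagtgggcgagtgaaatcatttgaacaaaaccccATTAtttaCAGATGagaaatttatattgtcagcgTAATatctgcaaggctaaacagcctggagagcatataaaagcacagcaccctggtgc
Pyy: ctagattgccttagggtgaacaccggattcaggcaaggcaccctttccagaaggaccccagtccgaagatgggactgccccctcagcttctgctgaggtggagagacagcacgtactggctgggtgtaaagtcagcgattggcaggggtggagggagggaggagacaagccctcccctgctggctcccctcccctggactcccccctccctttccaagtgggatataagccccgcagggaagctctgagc
Nts: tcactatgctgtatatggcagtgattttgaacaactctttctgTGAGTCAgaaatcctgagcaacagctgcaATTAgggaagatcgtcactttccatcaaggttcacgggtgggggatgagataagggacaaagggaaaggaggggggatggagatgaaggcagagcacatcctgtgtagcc
Within 250 bases of the start, Gcg held 2 matches to CAGATG and 2 to TAAT, Pyy held none of the 3 motifs, and Nts held 1 match to TAAT and 1 to TGAGTCA. Of 32851 RefSeq promoters of that length, 14.4% held CAGATG, 54.9% held TAAT and 4.46% held TGAGTCA. The motifs do not overlap each other, and a match is a match of letters and not a binding site.

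The members numbered 95 of 530 endocrine barcodes in WT, 62 of 673 in LApc and 48 of 523 in LApcL. Their median depth was 8944, 3699.5 and 4606.5 UMIs and their summed depth 1040531, 264498 and 333623 UMIs, so the LApc and LApcL values rest on fewer molecules. The other endocrine barcodes were 698 with Tph1 and Tac1 highest (enterochromaffin-type cells, which make serotonin), 653 with Cck, Gip, Ghrl and Sst highest, and 170 in no class. No barcode sequence was a member in 2 libraries, and 1 or 2 members per pair of libraries had a sequence that also occurred in the other. Doublets were not removed. Scrublet, run at the rate expected for the number of barcodes, marked 16, 9 and 10 members of WT, LApc and LApcL. Of all passing barcodes it marked 1015 of 11391, 1121 of 10869 and 2255 of 16975, a smaller share than of the members in each library.

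The targeted genes gave little information in these cells. Apc, the brake on Wnt signalling, had 22 UMIs in the WT members, 4 in LApc and 6 in LApcL. Lef1, a Wnt-responsive transcription factor, had 0, 2 and 1 UMIs. Over all passing barcodes Lef1 stood at 0.107 CPM (a gene's UMIs scaled to the same total in every sum) for WT, at 4.14 CPM for LApc and at 3.03 CPM for LApcL. Tags from the end of a transcript do not show whether an upstream part of the gene was deleted, so these values do not check the genotypes.

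The hormone markers and Chgb, which the rule used or which travel with it, were abundant in the members. Gcg stood at 4337 CPM in the WT members, at 13497 CPM in those of LApc and at 10857 CPM in those of LApcL. Pyy stood at 12756, 30265 and 14978 CPM and Nts at 27009, 69906 and 38031 CPM, in the same order. Chgb, a granin of secretory granules, stood at 1443, 6159 and 3189 CPM. All 4 were highest in LApc and lowest in WT, but with 50 or more hormone UMIs per cell Pyy was lowest in LApcL (18418 CPM, against 20461 CPM in WT). The rule set the same UMI minima in every library, which are a higher CPM in shallower barcodes. Members were shallower in LApc and LApcL than in WT, and the part of this in the order was not tested. General endocrine genes that the rule did not use were also present. Neurod1, a transcription factor of endocrine differentiation, stood at 288, 605 and 396 CPM, and Cpe, the carboxypeptidase that trims prohormones, at 451, 998 and 746 CPM.

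The sum of Gcg, Pyy and Nts in a member ranged from 2 to 2695 UMIs in WT with a median of 181, from 2 to 1549 in LApc with a median of 384, and from 2 to 1591 in LApcL with a median of 379.5. In the cell richest in hormone these 3 genes made up 37.7%, 51.1% and 29.9% of all UMIs. Low cells were a larger part of the WT members than of the mutant members. Of the members, 38 in WT, 14 in LApc and 8 in LApcL had fewer than 50 hormone UMIs, a limit chosen after the values were seen. In WT these low cells had less of other endocrine genes than the rest, though more than enterocytes. Neurod1 stood at 57.6 CPM in them against 432 CPM in the WT members with 50 or more, and Cpe at 45.1 against 703 CPM. Neurod1 was found in 28.9% of the low WT cells and Cpe in 31.6%, against 93.0% and 94.7% of the others. Whether all the low cells are enteroendocrine was not tested. Sct, which encodes secretin, stood at 3261 against 26511 CPM, and was found in 97.4% of the low cells. In enterocytes without chromogranin UMIs these 3 genes stood at 1.26, 3.05 and 87.4 CPM. The low cells of LApc were unlike those of WT. Chga stood at 7572 CPM in them against 1894 CPM in the other LApc members, and Neurod1 at 730 against 575 CPM. Cpe (414 against 1137 CPM) and Sct (7414 against 39091 CPM) were lower. Tph1 was found in 71.4% of the low LApc cells and 31.25% of the other LApc members. In the low LApcL cells Neurod1 stood at 132 CPM against 463 CPM.

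Free RNA in the droplets can give some hormone UMIs to cells that do not make hormones. In enterocytes without chromogranin UMIs, 9.15% of WT barcodes (95% interval 7.72 to 10.7%), 4.29% of LApc and 2.64% of LApcL had 2 or more UMIs of the 3 hormones, at median depths of 9530, 5821 and 7878 UMIs. The minimum of 2 UMIs in the rule was thus within the range of free RNA, more often so in WT. These enterocytes were picked for having no chromogranin UMI, so barcodes with more free endocrine RNA may be missing from them. Of 10861 passing WT barcodes under the chromogranin minimum, 7054 had no such UMI and the others had some. How often free chromogranin RNA reached the minimum was not tested. Just inside the limits, 1 WT, 2 LApc and 1 LApcL members had exactly 2 hormone UMIs, and 43, 20 and 14 had 5 to 9 chromogranin UMIs. Just outside, 1 WT, 0 LApc and 6 LApcL barcodes had the hormone sum highest at 1 UMI, and 31, 8 and 13 met the hormone limits with 3 or 4 chromogranin UMIs.

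**Figure D1:**
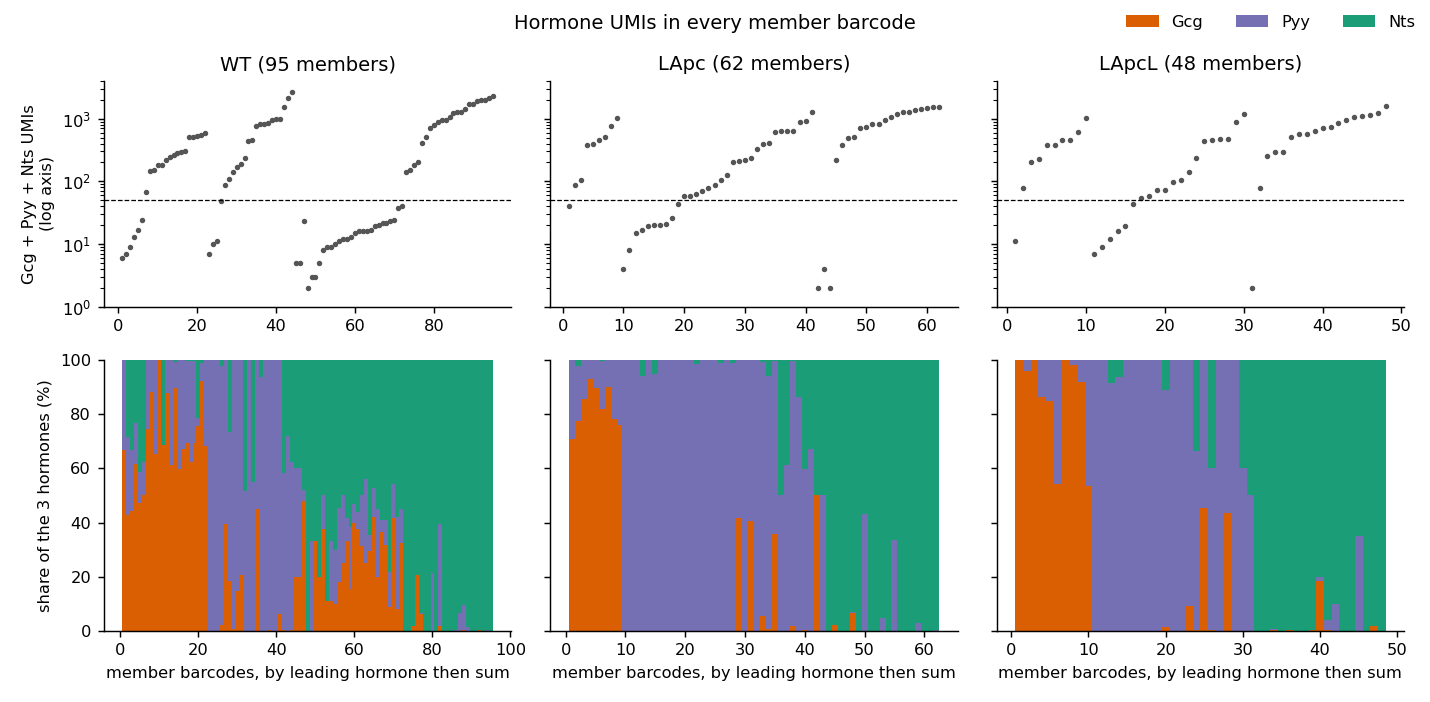
Upper panels show the sum of Gcg, Pyy and Nts UMIs in every member barcode (log axis, dashed line at 50 UMIs), and lower panels the share of that sum from each hormone in percent. Barcodes are ordered by leading hormone (Gcg, Pyy, ties, Nts) and then by sum. Of the WT barcodes, 38 lie under the line, against 14 in LApc and 8 in LApcL.

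WT members were a larger share of endocrine barcodes than members of the mutant libraries, and the gap was smaller after thinning or with more hormone UMIs required. The share was 17.9% in WT (14.8 to 21.5%), 9.21% in LApc (7.14 to 11.7%) and 9.18% in LApcL (6.84 to 12.0%). LApc was lower than WT by a difference of -8.71 percentage points (-12.7 to -4.83) and LApcL by -8.75 points (-12.9 to -4.63). With every barcode thinned to 3000 UMIs the shares were 10.9%, 8.15% and 8.13%, and the differences of -2.70 points (-7.16 to 1.68) and -2.72 points (-7.11 to 1.48) included 0. Shallower barcodes were left out for this, among them 21 LApc and 2 LApcL members. With 50 or more hormone UMIs the shares were 10.8%, 7.13% and 7.65%. The difference of LApc from WT was then -3.62 points (-7.01 to -0.397) and that of LApcL was -3.11 points (-6.64 to 0.405). Of all passing barcodes, the members of WT made up 0.834%, those of LApc 0.570% and those of LApcL 0.283%. On this base LApcL stayed below WT by a difference of -0.551 points (-0.748 to -0.374), of -0.129 points (-0.264 to -0.00963) after thinning and of -0.265 points (-0.425 to -0.123) with 50 or more hormone UMIs. LApc differed from WT by -0.264 points (-0.486 to -0.0433), but the interval included 0 after thinning (-0.181 to 0.128) and with 50 or more hormone UMIs (-0.242 to 0.124). LApcL differed from LApc by -0.288 points (-0.462 to -0.132). The interval included 0 after thinning (-0.241 to 0.0196), but not with 50 or more hormone UMIs (-0.206 points, -0.362 to -0.0682). In LApcL the share of endocrine barcodes rose to 12.5% when barcodes with 2 or more UMIs of Sox17 and Msx1, genes of the adenoma cells, were left out. Of the passing barcodes that then remained, members made up 0.834% in WT (0.675 to 1.02%) and 0.608% in LApc (0.467 to 0.779%). In LApcL they made up 0.586% (0.411 to 0.811%), so on this base the intervals of the libraries overlapped.

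**Figure D2:**
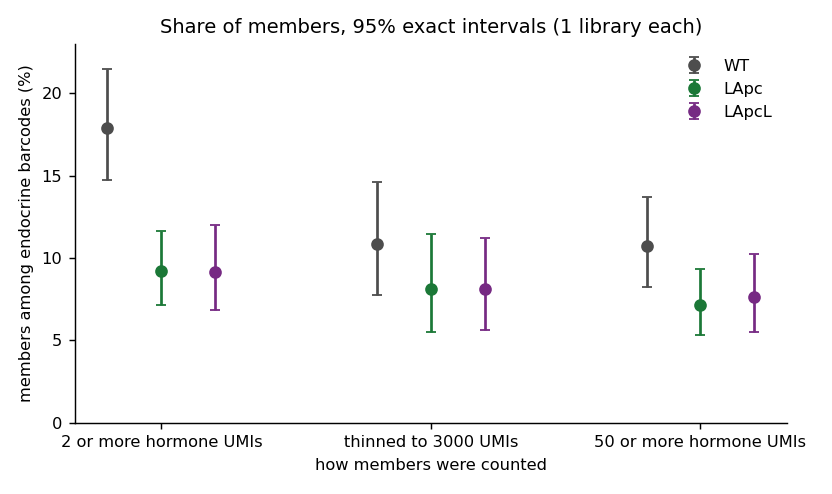
Members as a percentage of endocrine barcodes in each library, by the rule with 2 or more hormone UMIs, after thinning to 3000 UMIs and with 50 or more hormone UMIs. Bars are exact 95% intervals for counting error within 1 library each. The WT value falls from 17.9% to 10.9% and 10.8%, whereas the mutant libraries stay between 7.13% and 9.21%.

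The members fell into cells led by Gcg, by Pyy and by Nts. In WT 22 members had Gcg as their most abundant hormone, 22 had Pyy, 48 had Nts and 3 were tied. In LApc the numbers were 9, 32, 19 and 2, and in LApcL 10, 20, 17 and 1. With 50 or more hormone UMIs, WT had 16 Gcg-led, 18 Pyy-led and 23 Nts-led cells, LApc 8, 22 and 18, and LApcL 9, 14 and 17. Nts-led cells were thus 40.4% (27.6 to 54.2%), 37.5% (24.0 to 52.6%) and 42.5% (27.0 to 59.1%) of these cells, values whose intervals overlapped.

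Nts and Gcg were seldom abundant together. Among cells with 50 or more hormone UMIs, the Nts-led cells had median counts of 1051, 863.5 and 634 Nts UMIs in WT, LApc and LApcL, and their median Gcg and Pyy counts were 0 in all 3 libraries. Gcg and Pyy shared cells more often. Counting a hormone as present at 10 or more UMIs, 18 of 57 WT, 13 of 48 LApc and 8 of 40 LApcL cells had Gcg with Pyy and without Nts. Pyy with Nts and without Gcg was found in 10, 10 and 6 cells, and Gcg with Nts and without Pyy in 3, 1 and 1. All 3 hormones reached 10 UMIs in 3, 0 and 1 cells. Since the rule required only that the summed hormones be high, these mixtures were not fixed by it.

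Transcripts of other hormones were also present. Cck, which encodes the hormone cholecystokinin, stood at 2500, 9830 and 6271 CPM in the WT, LApc and LApcL members. Gip, which encodes the incretin of K cells, stood at 2262, 231 and 126 CPM, and 1 cell gave 24.1% of the 2354 WT UMIs. A single cell also gave 24.6% of the 61 LApc UMIs and 45.2% of the 42 LApcL UMIs. Enterocytes without chromogranin UMIs had Gip at 92.0, 124 and 40.0 CPM, so the mutant members lay nearer to them than the WT members did. Neurog3, the transcription factor of endocrine progenitors, was found in 0 WT, 1 LApc and 2 LApcL members.

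To ask which genes set these cells apart from other endocrine cells, UMIs were summed per library and class. The members were compared with the mean of the other 2 classes by edgeR's quasi-likelihood test with library as a block, leaving out the 11 genes that drew the classes. The 3 libraries are the replicates of this comparison. Of 9490 genes tested, 171 were higher in the members, which is 1.8% of all, and 72 were lower, which is 0.759%, at an adjusted p (Benjamini-Hochberg) under 0.05. Of these, 128 and 51 lay on the same side of both other classes in all 3 libraries. The median log2 fold change of all genes was -0.02. Against the Tph1/Tac1 class alone 277 genes were higher (2.92%) and 195 lower (2.05%). Against the Cck/Gip/Ghrl/Sst class alone 103 were higher (1.09%) and 37 lower (0.39%). The members' sums enter both of these comparisons, in which 52 genes were higher in both and 3 lower in both. Among the lower genes, 30 of 94 ribosomal protein genes were called, with a median of -0.22 over the 94.

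Rassf9, a gene of the Ras-association domain family, had the largest fold change and was found in no cell of the other 2 classes. It had 20 UMIs in 12 WT members (19.2 CPM), 7 UMIs in 5 LApc members (26.5 CPM) and 8 UMIs in 6 LApcL members (24.0 CPM), and 0 UMIs in the other classes of every library. Against the limit of 3 counts per class this is at least 36.2-fold higher than the Tph1/Tac1 class and at least 39.0-fold higher than the Cck/Gip/Ghrl/Sst class (edgeR adjusted p = 3.30e-07). Rassf9 is the nearest protein-coding gene on the higher-coordinate side of Nts. In GENCODE M21 on GRCm38, Nts lies on chr10:102481756-102490486 on the minus strand and Rassf9 on chr10:102512222-102549736 on the plus strand, with 21.7 kb between them. Mgat4c, 90.3 kb away on the other side of Nts, was also higher (log2 fold change 1.08, edgeR adjusted p = 0.0212), with 58, 3 and 7 UMIs in the members. The tested neighbours of Gcg and Pyy, Dpp4 and Nags, did not pass the test (log2 fold changes 0.44 and 0.15, edgeR adjusted p = 0.154 and 0.930).

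Among the receptors, Adgrd1 and Ffar1 stood out. Adgrd1, an adhesion G protein-coupled receptor, stood at 58.6 CPM among WT members, 117 CPM among LApc members and 111 CPM among LApcL members. In the Tph1/Tac1 class it stood at 2.60, 14.9 and 3.70 CPM and in the Cck/Gip/Ghrl/Sst class at 2.17, 5.69 and 5.34 CPM. The members of each library lay above both other classes of every library (log2 fold change 4.22 ± 0.27 SE, edgeR adjusted p = 4.72e-12). Ffar1, a receptor for long-chain fatty acids, stood at 87.5, 208 and 153 CPM in the members, against 40.6, 96.8 and 42.0 CPM in the Cck/Gip/Ghrl/Sst class and at most 2.35 CPM in the Tph1/Tac1 class (log2 fold change 4.31 ± 0.24, edgeR adjusted p = 2.78e-13). The size of that change came mainly from the Tph1/Tac1 class, since against the Cck/Gip/Ghrl/Sst class it was 1.24.

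Of 32 nutrient and bile acid sensing genes listed, 17 were tested, 5 were higher and 0 lower, with a median of 0.54 beside -0.02 for all genes. The higher genes were Ffar1, Gpr119, Ffar4, Slc15a1 and Sstr5. Gpr119, a receptor for lipid amides, had a log2 fold change of 3.35 (edgeR adjusted p = 9.53e-05), but against the Cck/Gip/Ghrl/Sst class it was 0.57 (edgeR adjusted p = 0.625). Ffar4, another fatty acid receptor, was 1.40 higher, and Slc15a1, the di- and tripeptide transporter, was 1.02 higher. Against the Cck/Gip/Ghrl/Sst class Ffar4 was at 0.23 (edgeR adjusted p = 0.861), whereas Ffar1 passed against both classes. Without WT, Ffar4 (edgeR adjusted p = 0.0793), Slc15a1 (0.106) and Sstr5 (0.490) lost their calls. Ffar4 also lost it without LApcL (0.207) and Sstr5 without LApc (0.162).

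The endocrine transcription factors changed in both directions. Of 32 listed, 29 were tested, 6 were higher (among them Etv1, Isl1, Neurod1 and Klf4), 1 was lower (Fev) and the median was -0.12. Etv1, an ETS factor, stood at 98.99, 178 and 201 CPM in the WT, LApc and LApcL members, at 49.3, 112 and 82.5 CPM in the Cck/Gip/Ghrl/Sst class and at most at 2.08 CPM in the Tph1/Tac1 class (log2 fold change 4.08 ± 0.24, edgeR adjusted p = 6.79e-12). Isl1, a LIM homeodomain factor of gut and pancreatic endocrine cells, stood at 88.4, 181 and 168 CPM in the members and at most at 3.64 CPM in the Tph1/Tac1 class. It was lower than in the Cck/Gip/Ghrl/Sst class (log2 fold change -0.74, edgeR adjusted p = 0.00337), where it stood at 171, 300 and 196 CPM. Fev, a factor of serotonin-type cells, had a log2 fold change of -0.60 (edgeR adjusted p = 0.0448). Fev lost its call whichever library was left out (edgeR adjusted p from 0.144 to 0.226), and Klf4 lost its call without WT (0.233). Neurod1 did not pass without Scrublet doublets (edgeR adjusted p = 0.348).

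Some genes that mark position along the gut were higher in the members. Of 25 listed, 11 were tested, 4 were higher (among them Hoxb9 and Osr2) and 0 lower, 7 did not pass and the median was 0.10. Hoxb9, a posterior homeobox gene, stood at 49.97, 30.2 and 8.99 CPM in the WT, LApc and LApcL members. The Cck/Gip/Ghrl/Sst class had 6.88, 3.56 and 2.29 CPM and the Tph1/Tac1 class 9.87, 7.06 and 2.11 CPM, so that the members lay above both in each library (log2 fold change 2.57 ± 0.29, edgeR adjusted p = 1.01e-06). In LApcL this rested on 3 Hoxb9 UMIs, all in Pyy-led members. In WT the Pyy-led members had 42 Hoxb9 UMIs, against 3 in Gcg-led and 7 in Nts-led members. In LApc the order was the reverse, with 1 UMI in Pyy-led and 5 in Nts-led members. Hoxb9 did not pass when Pyy-led members were compared with Nts- and Gcg-led members (edgeR adjusted p = 0.903). Without WT, Hoxb9 and Osr2 lost their calls (edgeR adjusted p = 0.0862 and 0.103).

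The secretory machinery was higher for a few genes. The secretin gene Sct stood at 17588, 33017 and 14768 CPM in the members. It was 1.51 higher on the log2 scale (edgeR adjusted p = 0.0177), and 0.59 against the Cck/Gip/Ghrl/Sst class (edgeR adjusted p = 0.350). Without Scrublet doublets it did not pass (edgeR adjusted p = 0.0967). It was the only gene to pass of 5 tested among 20 other gut peptides (median 0.30). Of 9 prohormone processing genes tested, Qpct, Cpe and Scg5 were higher and 0 lower, with a median of 0.48. Scg5 lost its call without LApcL (edgeR adjusted p = 0.128). Qpct, the glutaminyl cyclase that forms the pyroglutamate at the start of neurotensin among other peptides, stood at 41.3, 75.6 and 57.0 CPM in the members, 9.05, 38.4 and 16.8 CPM in the Cck/Gip/Ghrl/Sst class and at most 3.92 CPM in the Tph1/Tac1 class (log2 fold change 3.20 ± 0.32, edgeR adjusted p = 2.32e-07). Of 25 granin and granule genes tested, Resp18, Vgf, Abcc8, Scg3 and Syt7 were higher and Rab3c was lower, with a median of 0.21. No gene passed among 21 of secretory load and the unfolded protein response (median 0.01), among 9 of excitability and calcium entry (median -0.17) or among 17 of proliferation (median -0.39).

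Other genes with large changes were less abundant. Uts2b, which encodes a urotensin-like peptide, had 34 UMIs in the members of all libraries, 24 in the Cck/Gip/Ghrl/Sst class and 0 in the Tph1/Tac1 class. Bdnf, a neurotrophin, had 51, 72 and 0 UMIs. Both were higher in the combined comparison (edgeR adjusted p = 7.33e-06 and 1.80e-06), and are at least 35.2-fold and at least 52.8-fold higher than the Tph1/Tac1 class. Bdnf did not pass against the Cck/Gip/Ghrl/Sst class (edgeR adjusted p = 0.0994). The rest of the 12 highest were Mal, Col8a1, Unc80 and Parvb, with log2 fold changes of 3.47 to 4.06. Against the Cck/Gip/Ghrl/Sst class 9 of the 12 passed. Fos and Jun, the immediate early genes that form AP-1, were higher by 0.69 and 0.50, and Id2, a target of Bmp signalling, by 0.54. Without WT none of Fos, Jun, Id2 and Mal passed (edgeR adjusted p from 0.0541 to 0.176), and without LApcL neither Jun nor Id2 did (0.274 and 0.212). Jun also lost its call without LApc (0.0660). Krt20, a keratin of differentiated epithelium, was higher by 1.09 ± 0.09 (edgeR adjusted p = 3.33e-09).

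Lower genes were fewer and less stable. Meg3, an imprinted long noncoding RNA, had 1 UMI in all the members, 43 in the Tph1/Tac1 class and 155 in the Cck/Gip/Ghrl/Sst class (edgeR adjusted p = 0.00314). The rest of the 12 lowest, Lclat1, Prdm16, Ecsit, Gkn3, Fxyd6, Ppt1, Coa5, Ptprk, Fbxo9, Lgr4 and Cenpv, had log2 fold changes from -1.73 to -0.69. None of these 11 passed with DESeq2, which called 7 lower genes in all. Against the Tph1/Tac1 class 11 of the 12 passed and against the Cck/Gip/Ghrl/Sst class 2 of the 12. Ddc, the enzyme that completes serotonin synthesis, had a log2 fold change of -0.54 (edgeR adjusted p = 0.00415), and did not pass without WT (0.164). Of 10 tested partners of enterochromaffin cells, Ddc, Fev and Gstt1 were lower and Rgs4 was higher, with a median of -0.34.

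**Figure D3:**
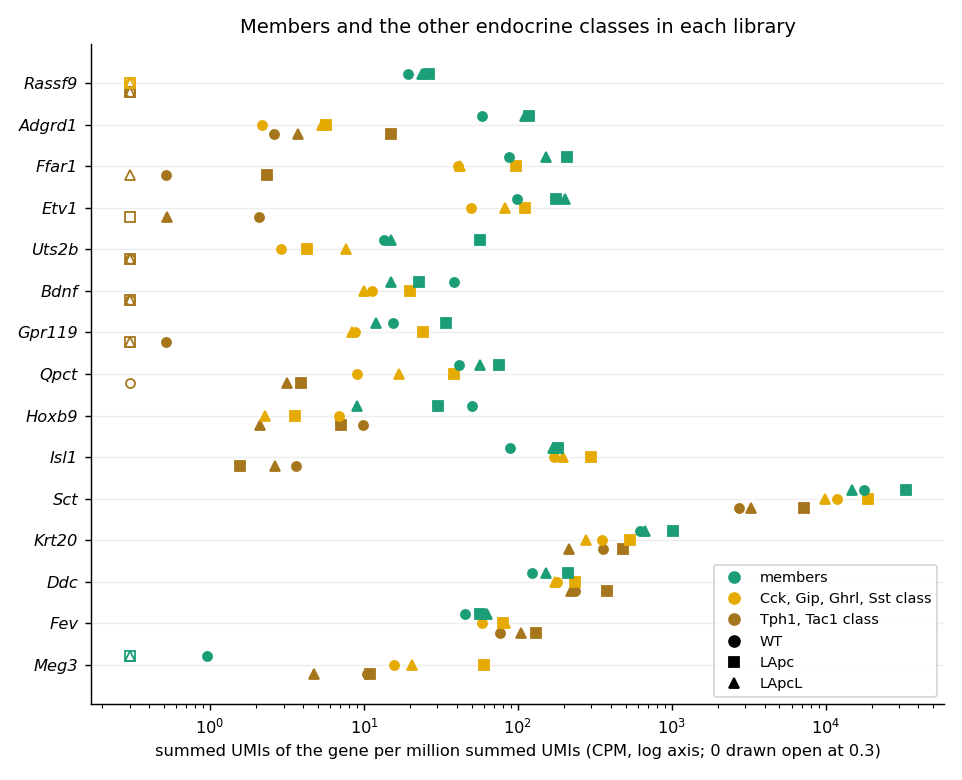
Summed UMIs of 15 genes in CPM (log axis) for the members (green), the Cck/Gip/Ghrl/Sst class (yellow) and the Tph1/Tac1 class (brown) in WT (circles), LApc (squares) and LApcL (triangles). Open symbols are 0 and are drawn at 0.3. Rassf9 and Adgrd1 lie apart from both other classes in each library, whereas Isl1 and Gpr119 lie near the yellow class. Hoxb9 lies above both other classes, in LApcL on 3 UMIs of the members.

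Markers of other cell types were carried by these cells, Paneth and goblet genes most of all in WT and enterocyte genes most of all in LApc. All 11 Paneth genes (antimicrobial peptides of the crypt base) were detected in each library, and summed to 56683 CPM among WT members, 2386 CPM among LApc members and 2443 CPM among LApcL members. The 11 goblet genes (mucus) summed to 57643, 13906 and 3657 CPM, and the 14 enterocyte genes to 14579, 20911 and 3774 CPM. In chromogranin-negative enterocytes the Paneth sum was 4625, 1461 and 1364 CPM and the goblet sum 6413, 4954 and 2719 CPM. In single WT members the Paneth sum ranged from 2318 to 396642 CPM. Defa26 was called higher among 11 Paneth genes tested (median 0.05), and Sis and Anpep, brush border enzymes, among 14 enterocyte genes (median 0.17), and none of these 3 passed with 50 or more hormone UMIs. No goblet gene passed of 11 tested. Immune markers were near 0, with 1, 2 and 2 of 14 genes detected. Of the 14 stromal and neural genes only Uchl1 was tested, and it was higher (2.66, edgeR adjusted p = 0.0327). The part that other cells' RNA plays in the calls was not tested. With only the members of 50 or more hormone UMIs, 246 genes were higher and 171 lower.

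To ask how the members vary among themselves, Nts-led cells were compared with Gcg-led cells by the same test, on sums per library of 10 or more cells. LApc had fewer than 10 Gcg-led cells, so WT and LApcL carried the comparison, while LApc entered with its other sums. Of 2660 genes tested, 14 were higher in Nts-led cells (0.526%) and 0 were lower (0%), with 173 genes at an unadjusted p under 0.05 and 4 higher and 0 lower by DESeq2. Adgrd1 stood at 128 CPM in Nts-led and 4.26 CPM in Gcg-led cells of WT, and at 331 and 0 CPM in LApcL (edgeR adjusted p = 0.000838). The other named genes were 4930539E08Rik, Serpina1e, Ret, Prss30, Nt5e, Scg5 and Syt7, with log2 fold changes from 2.41 to 6.65. All 8 lost their call without LApcL, which left WT alone with both kinds of cell, so that the Gcg-led side was 1 sum.

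Joining Gcg-led and Pyy-led cells gave both sides in every library. This comparison was limited to cells with 50 or more hormone UMIs and was chosen after the data had been seen. Of 2167 genes tested, 63 were higher in Nts-led cells (2.91%) and 43 lower (1.98%), and 32 of the 43 were ribosomal protein genes, of 82 tested. With all members 10 were higher and 3 lower. Adgrd1 stood at 264, 365 and 331 CPM in the Nts-led cells of WT, LApc and LApcL and at 2.39, 34.4 and 29.6 CPM in the others (log2 fold change 4.34 ± 0.42, edgeR adjusted p = 1.28e-05). Ret, the receptor tyrosine kinase of GDNF-family ligands, stood at 121, 277 and 145 CPM against 9.57, 20.7 and 23.7 CPM. Serpina1e, a serine protease inhibitor gene of a family of near-identical copies among which reads may be split, stood at 197, 583 and 372 CPM against 14.3, 55.1 and 0 CPM. In each of these the Nts-led cells of every library lay above the others of every library.

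Rassf9, the neighbour of Nts, had 15 of its 20 UMIs in WT in the Nts-led cells and 5 in the others of this comparison. It had 7 against 0 in LApc and 8 against 0 in LApcL (log2 fold change 3.55, edgeR adjusted p = 0.00930). Prohormone processing genes were also higher, with 4 of 6 tested and a median of 1.07 beside -0.01 for all genes. Scg5, the chaperone of the prohormone convertase PC2, stood at 318, 481 and 847 CPM against 105, 165 and 290 CPM. Pcsk1n, a proprotein convertase inhibitor, Qpct and Cpe were higher by 1.34, 1.67 and 0.79 on the log2 scale. Fos was higher by 1.78. Of 9 granule genes tested 4 were higher (Scg3, Syt7, Resp18 and Rab3b). Enterocyte genes were higher for 2 of 13 (Sis and Fabp6), and no goblet gene of 9 or Paneth gene of 7 passed.

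Gcg- and Pyy-led cells had more Afp, Vim, Ifitm1, Tspan7, Ddc and Cps1. Afp, which encodes alpha-fetoprotein, stood at 76.5, 241 and 130 CPM in these cells of WT, LApc and LApcL, and Nts-led cells had 8.97, 0 and 0 CPM (log2 fold change -4.25 ± 0.64). Vim, an intermediate filament gene, stood at 203, 255 and 94.8 CPM against 85.2, 14.6 and 0 CPM. Ddc stood at 210, 234 and 172 CPM against 67.2, 58.3 and 72.3 CPM. The median over the 82 ribosomal protein genes was -0.43. Nts-led cells also held more hormone, with median sums of 1051, 995.5 and 719 UMIs, against 795, 226.5 and 188 in Pyy-led and 274.5, 420 and 383 in Gcg-led cells, and the part of that in the ribosomal values was not tested.

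**Figure D4:**
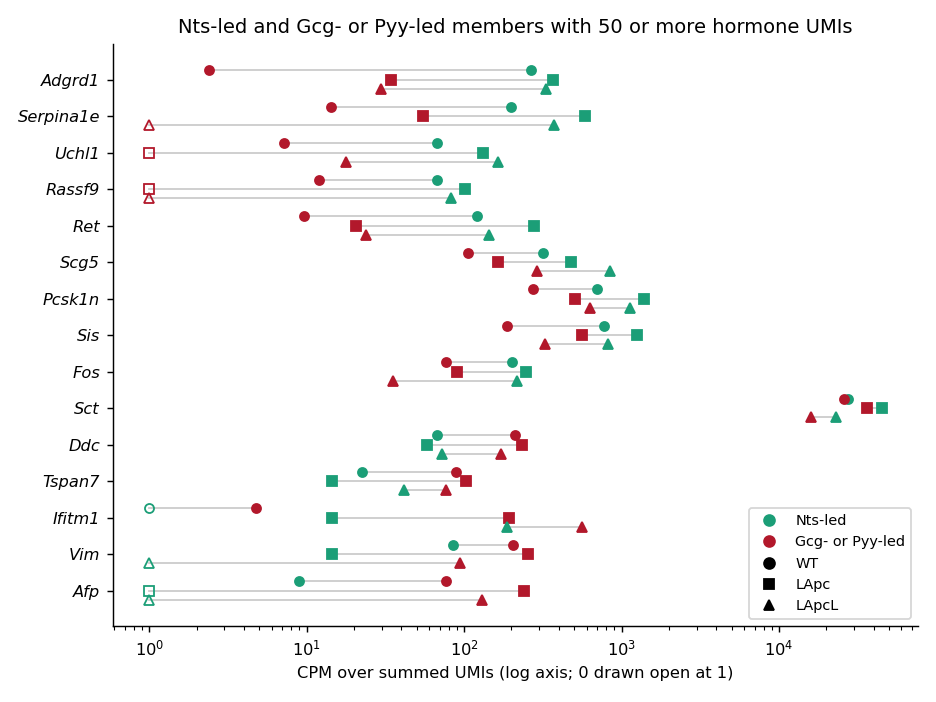
CPM (log axis) of 15 genes in Nts-led cells (green) and Gcg- or Pyy-led cells (red) with 50 or more hormone UMIs, in WT (circles), LApc (squares) and LApcL (triangles), with a grey line joining the values of 1 library. Open symbols are 0 and are drawn at 1. Adgrd1, Ret and Serpina1e are higher and Afp and Ddc lower in the Nts-led cells of each library.

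Pyy-led cells were compared in the same way with the mean of Nts- and Gcg-led cells, also chosen after the data had been seen. Of 2660 genes 15 were higher (0.564%) and 1 was lower (0.0376%). Ambp, which encodes the protease inhibitor bikunin, stood at 957 CPM in Pyy-led cells of LApc and 353 CPM in LApcL, against 70.5 and 124 CPM in the Nts-led cells of these libraries. In WT it stood at 174 CPM in Pyy-led cells, 41.2 CPM in Nts-led and 21.3 CPM in Gcg-led cells. Clu, which encodes clusterin, stood at 797 CPM in Pyy-led cells of LApcL and 0 CPM in all 3 kinds of cell in WT. Among the higher genes 5 were listed Paneth genes, high mainly in Pyy-led cells of WT, where Itln1 stood at 7180 CPM against 1251 CPM in Gcg-led cells. The lower gene was Fars2, a mitochondrial tRNA synthetase gene.

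Cartpt, which encodes the CART peptide, was found mainly in Pyy-led members of the mutant libraries. In the comparison of Pyy-led with Nts- and Gcg-led cells it did not pass (log2 fold change 6.84, edgeR adjusted p = 0.999), so its counts are given as a description. It was found in 18 of 32 Pyy-led cells of LApc with 215 UMIs, in 7 of 20 of LApcL with 142 UMIs, 74 of them in 1 cell, and in 1 of 22 of WT with 3 UMIs. It was found in 0 of 19 Nts-led cells of LApc, 0 of 17 of LApcL and 2 of 48 of WT, and in 1 Gcg-led cell in all. In LApc the total was 217 UMIs against 7 UMIs in WT, a log2 ratio of 6.93 (5.86 to 8.26), beside 1.36 in chromogranin-negative barcodes. The cells with Cartpt also carried Tph1, the enzyme of serotonin synthesis. All 19 LApc members with Cartpt had a Tph1 UMI, against 6 of the 43 without, and all 7 of LApcL had, against 3 of 41. In the Tph1/Tac1 class, Cartpt was found in 28 of 167 WT, 146 of 307 LApc and 52 of 224 LApcL barcodes. Whether these are single cells or droplets with both cell types was not tested.

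The members of the 3 libraries were then set side by side, as a description. A gene was counted when its CPM differed 2-fold or more, among genes with 50 or more UMIs in both libraries together. For LApc over WT 200 of 3025 genes were higher (6.61%) and 167 lower (5.52%). For LApcL over WT 188 of 3259 were higher (5.77%) and 156 lower (4.79%). For LApcL over LApc 89 of 1587 were higher (5.61%) and 84 lower (5.29%). The median log2 ratios of all these genes were 0.04, 0.25 and 0.20. With TMM scaling the counts were 148 higher and 210 lower, 75 and 240, and 37 and 123. With totals that leave out the 11 rule genes and the ribosomal and mitochondrial genes they were 271 and 125, 311 and 133, and 89 and 84, so the balance of higher and lower genes depends on the scaling. The first and middle comparisons share WT and the middle and last share LApcL. The mix of leading hormones differed between the libraries, and its part in these counts was not tested beyond the setting with an equal mix.

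Many endocrine genes were higher in LApc than in WT, by less when the cells with fewer than 50 hormone UMIs were left out of both libraries. Of 11 granule genes with enough UMIs 7 were past 2-fold higher and 0 lower, with a median of 1.10, and 0.58 with 50 or more hormone UMIs. Of 7 prohormone processing genes 5 were past 2-fold higher with a median of 1.15 (0.58), and of 11 endocrine transcription factors 6 with a median of 1.04 (0.42). After Cartpt, the largest ratios among genes with a UMI in 10% or more of the members and no cell with over 20% of the UMIs were of Gm8730 (3.40), Snap25 (3.15), Cirbp (2.94), Ssfa2 (2.87), Slc18a1 (2.84), Ambp (2.78) and Gpx3 (2.73). Snap25 and Slc18a1, a vesicle fusion protein and a vesicular monoamine transporter, had ratios of 1.07 and 0.77 in chromogranin-negative barcodes. Gm8730 had 3.83 there, so its difference was not one of these cells. The lowest under the same limits were Ccl6, Clca1, Kcne3, Hsph1, Mmp7, Dut, Muc2 and Gsta4, from -3.60 to -2.31. Of 11 Paneth genes 10 and of 11 goblet genes 10 were past 2-fold lower, with medians of -4.55 and -2.11, and -1.72 and -1.21 in chromogranin-negative barcodes.

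In LApcL, adenoma-associated transcripts were carried by some of the members. The 18 listed Wnt and adenoma genes summed to 4127 CPM in the LApcL members, against 316 CPM in WT and 620 CPM in LApc, and in single LApcL members ranged from 0 to 32298 CPM with a median of 1132 CPM. Of 48 LApcL members 12 had 2 or more UMIs of Sox17 and Msx1, and 0 members of the other libraries did. This was a smaller share than in the rest of the LApcL library. Of its chromogranin-negative barcodes 8404 of 13080 had 2 or more, against 529 of 8113 in LApc and 1 of 7054 in WT. Of the 523 endocrine LApcL barcodes, 287 had fewer than 2. S100g, a calcium-binding protein gene of that list, had 858 UMIs in the LApcL members and 63 in WT (log2 ratio 5.41, 5.04 to 5.80), beside 3.65 in chromogranin-negative barcodes. One cell held 56.3% of the S100g UMIs of LApcL. Among genes with a UMI in 10% or more of the members and no cell with over 20% of the UMIs, the largest ratios to WT were of Ifitm3 (2.87), Igfbp4 (2.59), S100a6 (2.57), Ctsl (2.41), Marcksl1 (2.13), Scg5 (1.93), Ifitm2 (1.93) and Avpi1 (1.92). For Ifitm3, an interferon-induced membrane protein gene, the ratio in chromogranin-negative barcodes was 3.83, and without the 12 members it was 1.91. Scg5 had 144 UMIs against 118 in WT (1.57 to 2.29), a ratio of 1.46 with 50 or more hormone UMIs and of 1.04 in chromogranin-negative barcodes.

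Under these limits, Muc2, Clca1 and 6 other genes were the lowest in LApcL relative to WT. Muc2, the gel-forming mucin, had 29 UMIs against 2613 in WT (log2 ratio -4.85, -5.43 to -4.33). Clca1, Ccl6, Ccl9, H2-Aa and Tmigd1 had ratios from -5.25 to -4.19 on 1 to 10 UMIs in LApcL, and Rep15 and Tpsg1 had 0 UMIs against 76 and 106. All 11 goblet and all 11 Paneth genes were past 2-fold lower, with medians of -3.93 and -4.91. Relative to LApc and under the same limits, Igfbp4, Ifitm2, Ifitm3, Nhp2, 2700094K13Rik, Ncl, Casp6 and Ptgr1 were highest (1.53 to 2.01). Gm8730, Fabp1, Gsta1, Rbp2, Clps, Fabp6, Slc6a19 and Klf4 were lowest (-2.54 to -1.82), and 6 of these 8 encode absorptive, detoxifying or pancreatic-type digestive proteins. For Fabp1, the fatty acid binding protein of enterocytes, the ratio was -2.49 in the members and -2.79 in chromogranin-negative barcodes. The part of free RNA in these differences was not tested.

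**Figure D5:**
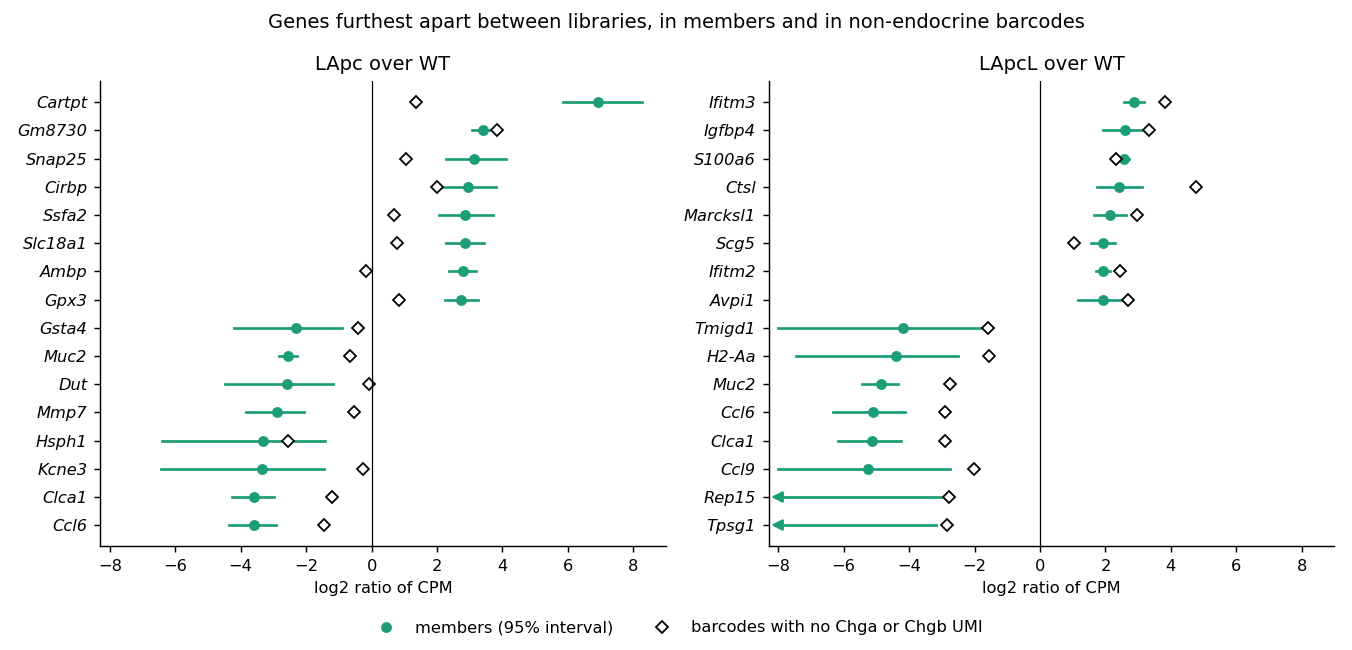
Log2 ratio of CPM for the 8 highest and 8 lowest genes in LApc over WT and in LApcL over WT, in the members (green, with exact 95% intervals for counting error, drawn no further than -8) and in barcodes with no Chga or Chgb UMI (diamonds). Arrows at the left mark 0 UMIs in the LApcL members. Cartpt, Snap25, Slc18a1 and Ambp have larger ratios in the members than in the diamonds, whereas Ifitm3 and Gm8730 have smaller ones.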

How the data were processed

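Single-cell libraries of EpCAM-positive small-intestinal epithelium had been made with a 10x Genomics kit whose version per library is not given in the sources used here. The authors deposited UMI counts per gene and barcode over 27998 genes, made with Cell Ranger 2.1.1 on mm10 (GRCm38), without normalization or cell annotation. The members and gene lists were chosen with earlier results of these data known. UMIs were summed per library and class. edgeR 4.0.16 under R 4.3.3 (glmQLFit, glmQLFTest, TMM, filterByExpr, library as block) tested 9 sums for the classes and 8 for the leading hormones, and Benjamini-Hochberg adjustment ran over all genes tested. DESeq2 1.42.0 was an alternative. The methods of the study give 1 mouse per group and state that the experiment was repeated, and 1 library per genotype was used here. With library as block, adjusted p-values measure how differences between the sums vary over these 3 libraries, which differ in genotype. CPM are counts scaled to the total UMIs of the same sum. Shares have Clopper-Pearson intervals, differences of shares Newcombe intervals, CPM exact Poisson intervals and ratios exact conditional binomial intervals, at 95%. A count of 0 was given a limit of 3 counts. Scrublet (scanpy 1.11.5) scored doublets, and its automatic threshold marked 2483, 378 and 6 barcodes of WT, LApc and LApcL.

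Named genes were the 12 highest and 12 lowest calls on the same side of both other classes in every library; the 8 highest and lowest calls by leading hormone with the same direction in every library; the 8 highest and lowest library ratios with a UMI in 10% or more of the members and no cell with over 20% of the UMIs; and genes of the lists. In the joined and Pyy-led comparisons the named genes were chosen after their values were seen. On simulated sums the class test, run on 9275 genes, recovered 29% of 2-fold and 86% of 4-fold changes, with 8 false calls. The leading-hormone test, run on 2308 genes, recovered 14% and 64%, with 6 false calls. The simulated sums had the same dispersion for every gene and no differences between libraries, unlike the data, so these rates may not hold for the data. Depth was 140181087 UMIs in 11453 barcodes for WT, 79696291 in 13214 for LApc and 191509615 in 17388 for LApcL. Pairs of libraries shared 214 to 318 barcode sequences, and 0 of these were members in both. Promoters were from RefSeq and gene positions from GENCODE M21. Some genes that met these rules are not reported here.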

Additional observations from a re-analysis of the deposited data

Results flagged for a closer look

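Some genes and marker sums moved in opposite directions between libraries when the members were set against the other endocrine barcodes. None of these differences was tested, since each genotype had 1 library. Neurog3 had a log2 ratio of CPM of 1.14 (0.19 to 1.99) in LApcL, where 2 members held its 14 UMIs, and a bound of -2.93 in WT, where the members had 0 UMIs. Cartpt had ratios of 1.51 in LApc and 1.42 in LApcL, where 1 cell gave 74 of 142 UMIs, and of -1.43 in WT, where it rested on 7 UMIs. Sdf2l1, a chaperone gene of the endoplasmic reticulum, had 0.32 in WT and -0.84 in LApcL, with 14 UMIs in the latter.

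The sums of other cells' markers also differed in direction. In WT the ratio was 0.72 for the goblet sum, 0.039 for the Paneth sum and 0.40 for the enterocyte sum. In LApc these were -0.82, -0.42 and 0.74. In LApcL they were -1.01, -0.29 and -0.22.

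Barcodes above the mitochondrial limit were outside the comparisons. Of 2218 such barcodes in LApc, 3 met the rest of the rule (0.135%), against 0 of 62 in WT and 0 of 412 in LApcL.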

How the results depend on the processing

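No paired analysis was possible because each genotype has 1 library, and library is the block of the tested comparisons. No named gene with a finite value changed direction under the alternatives tried, but the balance of higher and lower genes against WT turned with TMM scaling, to 148 higher and 210 lower for LApc and to 75 and 240 for LApcL. For the classes, 171 higher and 72 lower calls became 12 and 0 with no library block. Leaving out each library in turn gave 91 to 173 higher and 20 to 70 lower calls. Without Scrublet doublets there were 104 and 38, with DESeq2 115 and 7, with no filter 239 and 203, and with 50 or more hormone UMIs 246 and 171. For Nts-led against Gcg-led cells, 14 higher and 0 lower calls became 4 and 0 with DESeq2, 44 and 1 with no filter and 0 and 0 with no library block. They were 0 to 22 and 0 to 3 leaving out each library, 17 and 1 without doublets, and 46 and 6 with 50 or more UMIs. Without doublets, with 50 or more UMIs, with a leading hormone 2 times the others, and without WT or LApcL the Gcg-led side was 1 sum, assumed to vary like the others. Although the count rose without doublets, 5 of the 8 named genes did not pass there. With Gcg-led and Pyy-led cells joined they were 10 and 3, and 63 and 43 with 50 or more UMIs.

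For LApc over WT, the 200 higher and 167 lower genes became 647 and 468 at 20 or more UMIs and 90 higher with 50 or more hormone UMIs. The lower genes were 348 with an equal mix of Nts-led and Gcg-led cells and 268 with the mean CPM of single cells. For LApcL over WT, 188 and 156 became 678 and 375 at 20 or more UMIs, 75 and 240 with TMM, and 67 and 92 with 50 or more hormone UMIs. There were 311 higher with the reduced totals and 239 lower with the equal mix. For LApcL over LApc, 89 and 84 became 350 and 260 at 20 or more UMIs, 38 and 47 without doublets and 29 and 53 without Sox17 and Msx1 barcodes. There were 37 higher with TMM and 52 lower with 50 or more hormone UMIs. The WT share of 17.9% became 10.9% after thinning, 12.9% with 10 or more chromogranin UMIs and 10.8% with 50 or more hormone UMIs. The LApc share became 7.13% with 50 or more hormone UMIs and the LApcL share 12.5% without Sox17 and Msx1 barcodes. The alternatives with 50 or more hormone UMIs or joined cells were chosen after seeing the data. Ratios of genes at 0 UMIs in a library have no finite value and gave none here. The causes of these changes were not tested. The 62 LApc and 48 LApcL members limit what low genes can show.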

Other observations

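Hormone-rich barcodes also lay below the chromogranin limit. Of the passing barcodes with fewer than 5 Chga and Chgb UMIs, 19 of 10861 in WT (0.175%, 0.105 to 0.273%), 12 of 10196 in LApc (0.118%) and 14 of 16452 in LApcL (0.0851%) had 50 or more summed UMIs of Gcg, Pyy and Nts. The members with 50 or more such UMIs numbered 57, 48 and 40, so the chromogranin limit left out a part of the hormone-rich cells in each library.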
